A study of Homo sapiens with 6 samples.

Results

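Respiratory complex I is the entry point of electrons from NADH into the mitochondrial respiratory chain. The genes described here are those that encode its nuclear subunits (NDUFA, NDUFB, NDUFC, NDUFS and NDUFV) and its NDUFAF assembly factors. They were taken from the deposited table of 57819 rows, among the rows typed as protein coding whose gene name starts with NDUF, and 48 such rows with 46 different gene symbols are described. NDUFA7 and NDUFB8 each occupied 2 rows, and 1 row was the readthrough transcript NDUFC2-KCTD14. Of the 48 rows, 45 had enough reads to be tested (on average 10 or more normalized reads per library). NDUFA7 in its row ENSG00000167774.2 had 1 read in control 1 and none elsewhere, and NDUFB8 in its row ENSG00000255339.2 and NDUFC2-KCTD14 had no reads in any library. These 3 rows were not tested.

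All 6 libraries came from IMR90 ER:Ras cells. IMR90 is a human lung fibroblast line in wide use, and ER:Ras is a Ras oncogene joined to a receptor domain that 4-hydroxytamoxifen (4OHT) switches on, after which the cells enter oncogene-induced senescence. Both groups carried ER:Ras and both received 200 nM 4OHT for 3 days, so no library without active Ras entered this comparison. The control group received a scrambled siRNA (siSCR, n = 3) and the other an siRNA directed at sin-lncRNA, a long noncoding RNA (n = 3). The labels do not say whether the replicates were separate cultures, so the p-values measure the spread between these libraries, which may be technical. The comparison asked what depletion of the lncRNA changed in the RNA of these cells. All knockdown libraries carry the same siRNA name in the labels. Other effects of that siRNA therefore cannot be told apart from depletion of the lncRNA.

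Complex I has an L shape. Its matrix arm holds the N module, which takes electrons from NADH, and the Q module, which passes them over iron-sulfur clusters to ubiquinone, and its membrane arm pumps protons. A set of core subunits carries out this chemistry, of which those of the matrix arm are encoded in the nucleus and those of the membrane arm (MT-ND1 to MT-ND6 and MT-ND4L) in mitochondrial DNA. Accessory subunits surround the core, and assembly factors help to build the complex without being part of the finished enzyme. In fibroblasts, defects in many of these genes are known to lower complex I activity.

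Reads in genes ranged from 30271192 to 50913672 in controls and from 22117324 to 27882280 in knockdowns, so all knockdowns were read less deeply than all controls. Levels are given as RPM, the recovered reads scaled to 1e+06 reads of effective library size, on which 3 reads correspond to 0.0596 to 0.134 RPM depending on the library. The targeted lncRNA, listed as RP4-530I15.6, stood at 3.70, 4.73 and 4.09 RPM in controls 1, 2 and 3 and at 0.493, 0.640 and 0.534 RPM in knockdowns 1, 2 and 3. Of 9 fibroblast markers, 9 were tested, 5 were lower and 3 higher in knockdown, and their summed level was 15290 to 16468 RPM in controls and 10806 to 11229 RPM in knockdowns. Summed levels of 5 immune markers were at most 0.463 RPM and those of the 3 endothelial markers found in the table at most 2.71 RPM. The sum of 5 epithelial markers was 21.2 to 23.6 RPM in controls and 23.3 to 25.4 RPM in knockdowns, most of it KRT18. The part of these marker shifts in the results below was not tested. In bulk RNA, fewer cells of one kind and less RNA per cell cannot be told apart.

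Complex I genes were more often lower than higher after knockdown. Of the 45 tested members, 19 passed the test (42.2%; limma, Benjamini-Hochberg adjusted p under 0.05 over all 19048 genes tested), 17 lower (37.8%) and 2 higher (4.44%). Over all tested genes, 41.0% passed, 23.5% lower and 17.5% higher, and among protein-coding genes alone 26.4% were lower and 22.2% higher. The share of members that passed was thus near that of all genes, and 17 of the 19 calls were lower. All 3 knockdown libraries lay below all 3 controls in 18 members and above them in 3, against 28.3% and 22.8% of all tested genes. The median log2 fold change was -0.12 over the members and -0.04 over all tested genes. The members share libraries and a biological role and were not tested as a set.

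The counts moved when single libraries were left out. Without control 3 the count of members that passed dropped to 8, all lower, without control 1 to 12, all lower, and without knockdown 1 to 12, of which 11 were lower. In 7 of the 17 genes called lower, the call held in each of the 21 other fits that were run: NDUFS3, NDUFV1, NDUFA6, NDUFA9, NDUFB6, NDUFB9 and NDUFAF1. Summed over the tested members, the level was 1906, 1772 and 1919 RPM in controls 1, 2 and 3 and 1659, 1781 and 1781 RPM in knockdowns 1, 2 and 3, a mean change of -6.72%. The groups of this sum overlapped, since control 2 lay below knockdowns 2 and 3. Of the 48 rows, 32 overlap another row of the table, 22 of them on the same strand. The strand setting of the counting is not given in the sources used here, so reads in such overlaps cannot be assigned.

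**Figure D1:**
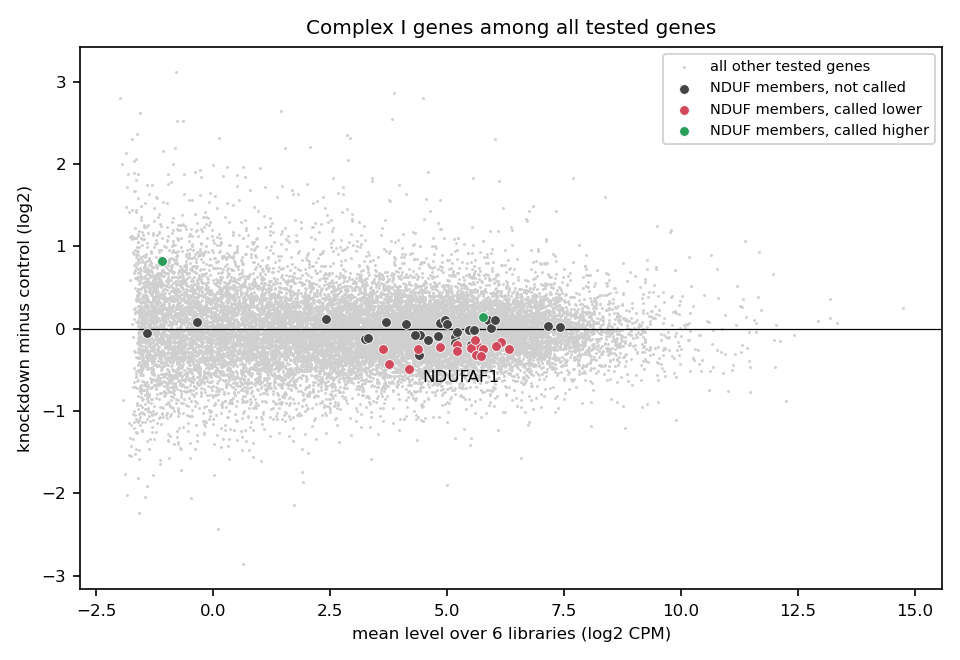
Log2 fold change (knockdown minus control, y axis) against the mean level over the 6 libraries (log2 CPM, x axis) for all tested genes (grey) and the 45 tested NDUF members (large points, coloured by call). The 17 genes called lower lie between -0.49 (NDUFAF1) and -0.14.

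In the Q module, the core subunits described differed in how far their libraries scattered. NDUFS3, which carries no iron-sulfur cluster and joins the module early, stood at 60.6, 57.9 and 60.4 RPM in controls and at 46.1, 46.5 and 49.8 RPM in knockdowns. Every knockdown was below every control, and the log2 fold change was -0.33 (SE 0.0509, adjusted p = 4.49e-04 by limma), a change of -20.4%. NDUFS7, which holds the last iron-sulfur cluster before ubiquinone, stood at 28.2, 15.02 and 25.2 RPM in controls and at 17.1, 27.0 and 19.4 RPM in knockdowns. Its groups overlapped throughout, with control 2 the lowest library and control 1 the highest (log2 fold change -0.08, SE 0.215, adjusted p = 0.787 by limma). NDUFS8, another iron-sulfur subunit, scattered likewise, at 71.2, 50.3 and 64.4 RPM in controls and 53.6, 69.4 and 62.8 RPM in knockdowns (0.01, SE 0.120, adjusted p = 0.972 by limma). Both genes had larger standard errors than NDUFS3, so a change of the size seen in NDUFS3 would have been harder to detect in them.

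In the N module, NDUFV1 carries the flavin that oxidises NADH. It stood at 88.5, 84.1 and 88.8 RPM in controls and 69.5, 76.6 and 74.5 RPM in knockdowns, with no overlap between groups (log2 fold change -0.25, SE 0.0510, adjusted p = 0.00290 by limma). NDUFS1, the largest subunit and bearer of several iron-sulfur clusters, did not pass the test. It stood at 140, 142 and 143 RPM in controls and 148, 138 and 149 RPM in knockdowns (0.03, SE 0.0441, adjusted p = 0.631 by limma).

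NDUFV2, the third N module core subunit, could hardly be measured from its own row, which held 16, 9 and 18 reads in controls and 9, 7 and 10 in knockdowns. At 0.376 ± 0.0865 and 0.353 ± 0.0524 RPM it was also, per transcript length, the lowest of all tested members. Its processed pseudogene NDUFV2P1, an intronless copy at chr19:53727226-53728132 in the table's coordinates (hg19 per the submitters' processing notes), had 71.8, 70.0 and 70.1 RPM in controls and 61.1, 62.0 and 62.7 RPM in knockdowns, within the range of the other subunits' rows. The gene's row therefore held 0.529% of the RPM of both rows together in controls. In GENCODE 29 the pseudogene aligned to 694 columns of an NDUFV2 transcript of 942 bases with 98.1% identity, and 25.9% of the transcript's windows of 50 bases, the read length, occur unchanged in the pseudogene. The stretches below are shown because a read of this length over the exon junction of NDUFV2 can lie whole in the pseudogene, which has no intron there. They are bases 397 to 456 of the transcript, within its coding part, and the matching bases 430 to 489 of the pseudogene, 5′ to 3′, and the capitals mark the exon after the junction.
NDUFV2: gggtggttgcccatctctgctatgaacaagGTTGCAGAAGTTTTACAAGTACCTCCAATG
NDUFV2P1: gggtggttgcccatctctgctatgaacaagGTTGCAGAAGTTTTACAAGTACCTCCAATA
Over these 60 bases the copies differ by 1 substitution, G60A, written as the gene's base, the position from the left end of the stretch and the pseudogene's base. NDUFV2 is also overlapped on its own strand by the longer processed transcript RP11-21J18.1, which had no reads. How much of the signal on NDUFV2P1 came from NDUFV2, and why the gene's own row held so few reads, was not tested. The pseudogene's row fell by 0.19 on the log2 scale (SE 0.0438, adjusted p = 0.00541 by limma), with all knockdowns below all controls.

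Among 38 rows of NDUF pseudogenes, 9 had a mean of at least 10 reads, and 5 members share windows of 50 bases with such a row. NDUFA9P1 fell with NDUFA9 (10.5 ± 0.899 to 7.05 ± 0.548 RPM, log2 fold change -0.57, adjusted p = 7.53e-04 by limma), and NDUFB8P2 with NDUFB8 (13.9 ± 0.337 to 11.6 ± 1.01 RPM, -0.26, adjusted p = 0.0235). NDUFA5P11 (0.28) and NDUFB1P1 (-0.05) did not pass the test, nor did NDUFA5 and NDUFB1. Windows were counted over the longest coding transcript of each gene. Those found unchanged in the copy were 49 of 8314 for NDUFA9 (0.589%) and 74 of 5559 for NDUFA5 (1.33%). They were 19 of 664 for NDUFB8 (2.86%), 21 of 479 for NDUFB1 (4.38%) and 231 of 893 for NDUFV2 (25.9%). These shares depend on transcript length and cannot be compared between genes. In controls the gene's row held 60.0% of the RPM of both rows for NDUFA9, 62.2% for NDUFB8, 81.8% for NDUFB1 and 86.4% for NDUFA5. Levels of these 5 genes are uncertain to the extent that reads were placed on the copy, which was not tested.

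**Figure D2:**
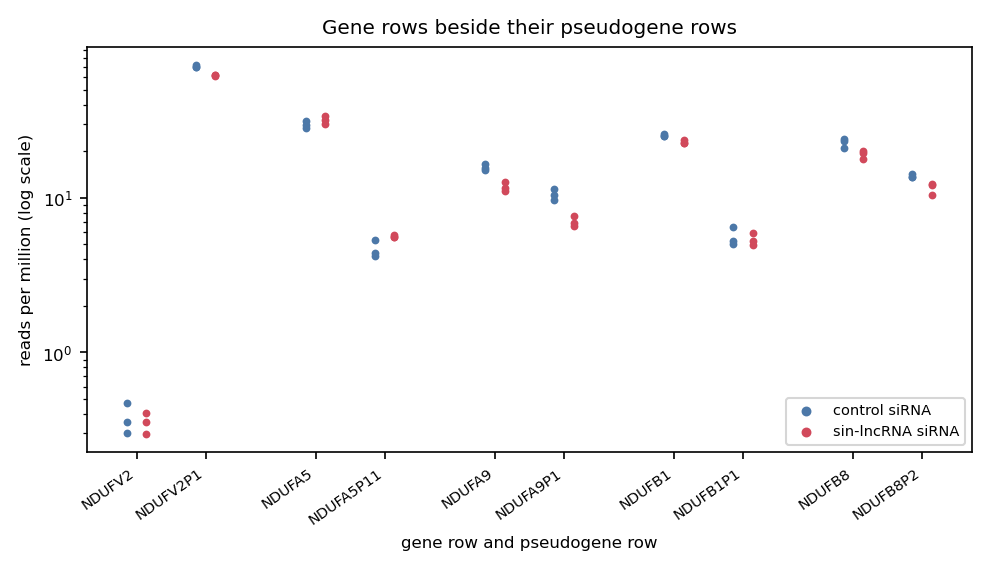
Level in each library (RPM, log scale) of the 5 gene rows that share windows of 50 bases with a pseudogene row of at least 10 reads on average, each beside its pseudogene. NDUFV2 lies below 0.5 RPM while NDUFV2P1 lies above 61 RPM.

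The accessory subunits of the matrix arm stabilise the core, and of their 9 genes 4 were lower and 1 higher. Among all tested genes, 23.5% were lower and 17.5% higher. NDUFA9, which binds a nucleotide cofactor next to the Q module, stood at 15.2, 15.5 and 16.5 RPM in controls and 12.7, 11.01 and 11.5 RPM in knockdowns. All knockdowns were below all controls, and the log2 fold change was -0.42 (SE 0.0767, adjusted p = 0.00127 by limma). NDUFA6, a subunit of the LYR family that holds a copy of the acyl carrier protein, stood at 54.0, 53.9 and 56.5 RPM in controls and 41.9, 42.2 and 47.8 RPM in knockdowns. The groups did not overlap (-0.32, SE 0.0602, adjusted p = 0.00158 by limma). NDUFS4 and NDUFV3 were the other members of this group called lower, at -0.20 and -0.14. NDUFS4 did not pass without control 3 (adjusted p = 0.111) or knockdown 1 (0.0783), and with single libraries left out NDUFV3 held its call only without knockdown 1 (0.0477; 0.0505 to 0.195 otherwise).

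The member called higher in the matrix arm was NDUFA7 in its row ENSG00000267855.1, and it rests on few reads. That row had 11, 12 and 15 reads in controls and 14, 16 and 14 in the shallower knockdowns, or 0.323, 0.400 and 0.298 RPM against 0.628, 0.683 and 0.499 RPM. The log2 fold change was 0.82 (SE 0.277, adjusted p = 0.0359 by limma). The call was lost without control 1 (adjusted p = 0.0769), control 3 (0.122), knockdown 1 (0.0821) or knockdown 2 (0.105). Both NDUFA7 rows overlap each other and RPS28, a ribosomal protein gene on the opposite strand with a mean of 1810 reads.

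In the membrane arm, the proximal part held 2 lower and 1 higher of 9 tested genes, with a median of -0.09. The distal part held 6 lower and none higher of 11, with a median of -0.21. Over all tested genes 23.5% were lower and 17.5% higher, and the lower calls of the proximal part were near that share. In the distal part, NDUFB6 stood at 40.5, 38.6 and 42.3 RPM in controls and 30.7, 36.0 and 33.7 RPM in knockdowns, with no overlap (-0.28, SE 0.0672, adjusted p = 0.00715 by limma). NDUFB8, a subunit often used on blots as a marker of assembled complex I, stood in its row ENSG00000166136.11 at 21.1, 24.0 and 23.4 RPM in controls and 17.8, 19.6 and 20.1 RPM in knockdowns. Its groups did not overlap (-0.25, SE 0.0724, adjusted p = 0.0168 by limma), and the call was lost without control 2 (adjusted p = 0.0528), control 3 (0.0717) or knockdown 1 (0.0588). NDUFB10, a subunit with disulfide bonds in the intermembrane space, stood at 63.6, 55.1 and 61.0 RPM in controls and 44.5, 53.7 and 53.0 RPM in knockdowns. Its highest knockdown lay just under its lowest control (-0.25, SE 0.0787, adjusted p = 0.0250 by limma), and the call was lost without control 1 (0.0795), control 3 (0.0848) or knockdown 1 (0.0799). NDUFB3, NDUFB9 and NDUFB11 were also called lower, at -0.22, -0.21 and -0.23. NDUFB3 did not pass without control 3 (adjusted p = 0.0603), nor NDUFB11 without control 1 (0.131), control 3 (0.140), knockdown 1 (0.141) or knockdown 3 (0.0868). The 5 distal genes not called lay between -0.13 and 0.10. After a correction for GC content and transcript length, NDUFB8 (-0.13), NDUFB10 (-0.08) and NDUFB11 (-0.07) lost their calls and NDUFB7 (0.23) became higher. NDUFB3, NDUFB6 and NDUFB9 stayed lower. Over all genes the corrected fit called 24.2% lower and 20.1% higher.

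NDUFA1, a small membrane subunit of the proximal part, was the other member called higher, and it was well covered. It stood at 52.0, 50.3 and 53.0 RPM in controls and 54.1, 58.4 and 59.1 RPM in knockdowns. Every knockdown was above every control, by little in knockdown 1 (log2 fold change 0.14, SE 0.0523, adjusted p = 0.0475 by limma). The call held without knockdown 1 and was lost on leaving out any one of the other libraries, with adjusted p from 0.0714 to 0.160. NDUFA8 and NDUFA10 of the same part were called lower, at -0.21 and -0.16, the latter not without control 1 (adjusted p = 0.0829), control 3 (0.149), knockdown 1 (0.134) or knockdown 3 (0.0902). With a correction for GC content and transcript length NDUFA8 was at -0.11 and did not pass (adjusted p = 0.0726). NDUFA11 had a fold change of -0.32 but did not pass (adjusted p = 0.0901 by limma). Its control 2 stood at 18.5 RPM against 26.8 and 26.2 RPM in controls 1 and 3, and it passed without that library (0.0018).

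NDUFAB1 is the mitochondrial acyl carrier protein, which complex I holds in more than one copy and which also serves fatty acid synthesis. It stood at 57.2, 48.0 and 57.0 RPM in controls and 40.2, 51.5 and 44.8 RPM in knockdowns, so knockdown 2 lay above control 2. It passed the test narrowly (-0.25, SE 0.0926, adjusted p = 0.0493 by limma), and not without control 1, control 3, knockdown 1 or knockdown 3 (adjusted p from 0.128 to 0.176). NDUFA4, once counted as a complex I subunit and now placed in complex IV, did not pass the test. It stood at 63.1, 58.7 and 65.2 RPM in controls and 65.8, 70.1 and 65.0 RPM in knockdowns (0.10, SE 0.0545, adjusted p = 0.152 by limma). NDUFA4L2, its hypoxia-inducible relative, had few reads, 14 to 35 per library, at 0.765 ± 0.227 and 0.798 ± 0.178 RPM (0.09, adjusted p = 0.825).

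**Figure D3:**
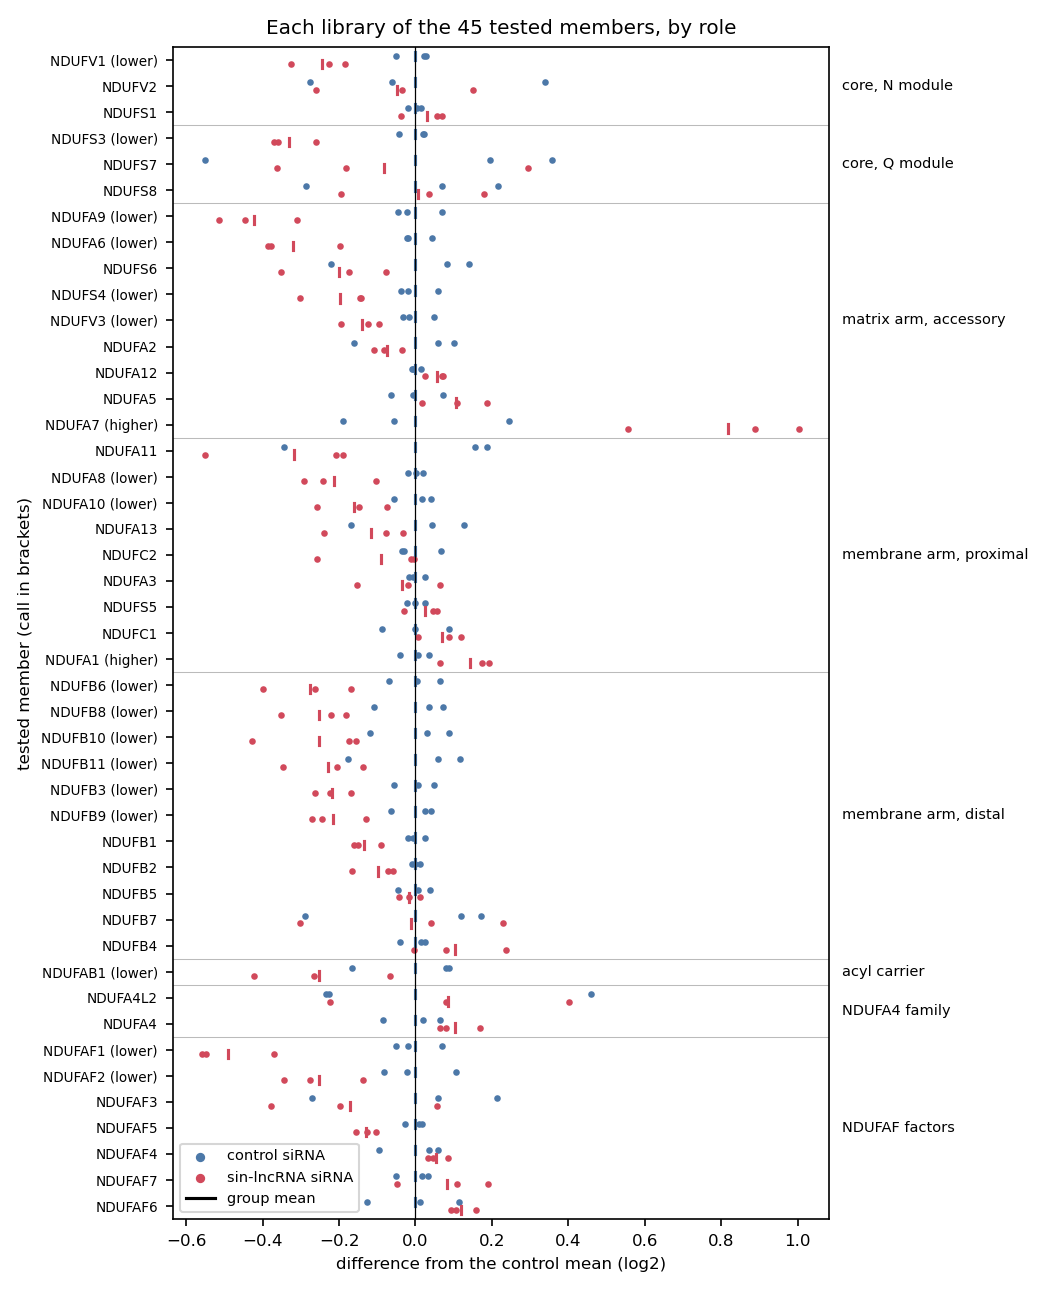
Difference of each library from the control mean (log2, x axis) for the 45 tested members (y axis), grouped by role, with controls in blue, knockdowns in red and group means as ticks. Calls are in brackets, and the 6 distal membrane arm genes called lower have all 3 knockdowns to the left of 0.

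Of the 7 NDUFAF members, 2 were lower and none higher, against 23.5% lower and 17.5% higher over all tested genes. NDUFAF1 is a part of the assembly complex (MCIA) that helps to build the membrane arm around MT-ND2. It stood at 21.4, 20.9 and 22.8 RPM in controls and 14.8, 14.7 and 16.8 RPM in knockdowns. The groups lay well apart (-0.49, SE 0.0723, adjusted p = 3.29e-04 by limma), and its change was -28.8%. NDUFAF2, which acts late, when the N module is added, stood at 12.8, 13.4 and 14.6 RPM in controls and 12.3, 11.2 and 10.7 RPM in knockdowns. It did not overlap between groups (-0.25, SE 0.0829, adjusted p = 0.0311 by limma) but lost its call without control 3 (0.145), knockdown 2 (0.0775) or knockdown 3 (0.114).

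The remaining factors did not pass the test. NDUFAF3 and NDUFAF4, which work together on the Q module, had fold changes of -0.17 (adjusted p = 0.303) and 0.05 (adjusted p = 0.546 by limma). NDUFAF3 varied widely, at 44.0, 31.4 and 39.6 RPM in controls and 29.2, 39.5 and 33.1 RPM in knockdowns, and passed the test only without control 2 (0.0292). NDUFAF7, a methyltransferase, stood at 12.6, 12.8 and 12.04 RPM in controls and 14.2, 12.04 and 13.4 RPM in knockdowns (0.08, adjusted p = 0.437). NDUFAF5, which modifies NDUFS7, was below all controls in all knockdowns (9.84 ± 0.159 against 8.997 ± 0.163 RPM) with a fold change of -0.13 that did not pass (adjusted p = 0.191), but did with the GC and length correction (-0.22, adjusted p = 0.0307). NDUFAF6, an early factor, had 5.11 ± 0.432 against 5.53 ± 0.133 RPM (0.12, adjusted p = 0.378). NDUFAF8, listed as C17orf89 and so not a member by name, did not pass either (0.12, adjusted p = 0.316 by limma).

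Genes outside the NDUF names that act on complex I moved in both directions. The shares over all tested genes, to set beside the counts here, were 23.5% lower and 17.5% higher. Of 12 other assembly factors, 1 was higher and 1 lower, with a median of 0.02. ECSIT, a partner of NDUFAF1 in the MCIA complex, rose from 15.9 ± 1.43 to 20.9 ± 1.80 RPM (0.39, SE 0.0866, adjusted p = 0.00422 by limma), the opposite direction to NDUFAF1. TMEM70, which acts in the assembly of complex I and of ATP synthase, fell by 0.26 (adjusted p = 0.00705). Of the 7 subunits encoded in mitochondrial DNA, 5 were higher and none lower, with fold changes from 0.08 to 0.40. MT-ND1 stood at 870, 961 and 899 RPM in controls and 1238, 1185 and 1178 RPM in knockdowns, with no overlap (0.40, SE 0.0463, adjusted p = 6.28e-05 by limma). MT-ND3 (0.11, adjusted p = 0.0429 by limma) and MT-ND4L (0.17, adjusted p = 0.0493 by limma) passed narrowly. MT-ND5 and MT-ND6 rose by 0.23 each. Groups overlapped in MT-ND4L and MT-ND6. MT-ND5 lost its call without control 3 (adjusted p = 0.0769) or knockdown 1 (0.0585), and MT-ND6 without control 1 (0.0698), control 3 (0.122), knockdown 1 (0.0993) or knockdown 2 (0.0606). The 36 tested nuclear subunits, without the NDUFAF factors, NDUFA4 and NDUFA4L2, had a median of -0.13 and the mitochondrial subunits one of 0.17, a difference that was not itself tested.

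Iron-sulfur clusters are carried by the core subunits NDUFV1, NDUFV2, NDUFS1, NDUFS7 and NDUFS8. Of 13 tested genes of cluster assembly, 5 were lower and 2 higher, against 23.5% and 17.5% of all tested genes. ISCA1, NFU1 and BOLA3, which act in the late steps that deliver clusters to proteins such as those of complex I, fell. ISCA1 stood at 18.03, 18.9 and 20.3 RPM in controls and 12.2, 11.01 and 12.005 RPM in knockdowns (-0.70, SE 0.0744, adjusted p = 3.47e-05 by limma). NFU1 fell by 0.38 and BOLA3 by 0.37 on the log2 scale. FDXR, the reductase that feeds electrons to the pathway, rose by 0.54 (SE 0.138). It stood at 27.1, 17.6 and 22.6 RPM in controls and 28.1, 36.7 and 32.1 RPM in knockdowns. Its call held on leaving out any single library, with 0.37 without control 2. ISCU, the scaffold of the pathway, rose by 0.18, but did not pass without control 2 (adjusted p = 0.0626), control 3 (0.0835) or knockdown 3 (0.0625).

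The nuclear genes listed for the other respiratory complexes likewise held both lower genes and genes without a call. The lists leave out the subunits of complexes III, IV and V that mitochondrial DNA encodes. Complex II had 3 lower of 8 tested (SDHB -0.34, SDHAF3 -0.34, SDHA -0.17), complex III 3 of 9 (CYC1 -0.37, UQCRC1 -0.28, UQCRH -0.20), complex IV 2 of 10 (COX8A -0.51, COX5A -0.43) and complex V 5 of 15, with none higher in any of the 4. Over all tested genes 23.5% were lower and 17.5% higher. SDHAF3, listed as ACN9, did not pass without control 3 (adjusted p = 0.0667). Medians ran from -0.15 in complex II to -0.02 in complex III, on both sides of the -0.12 of the NDUF members. In complex V a single gene stood apart. ATP5F1B, the catalytic beta subunit, listed as ATP5B, had 658, 685 and 707 RPM in controls and 299, 291 and 296 RPM in knockdowns (-1.21, SE 0.0408, adjusted p = 2.11e-08 by limma). ATP5PO and ATP5PD of the same complex fell by 0.32 and 0.30. No difference between the complexes was tested.

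**Figure D4:**
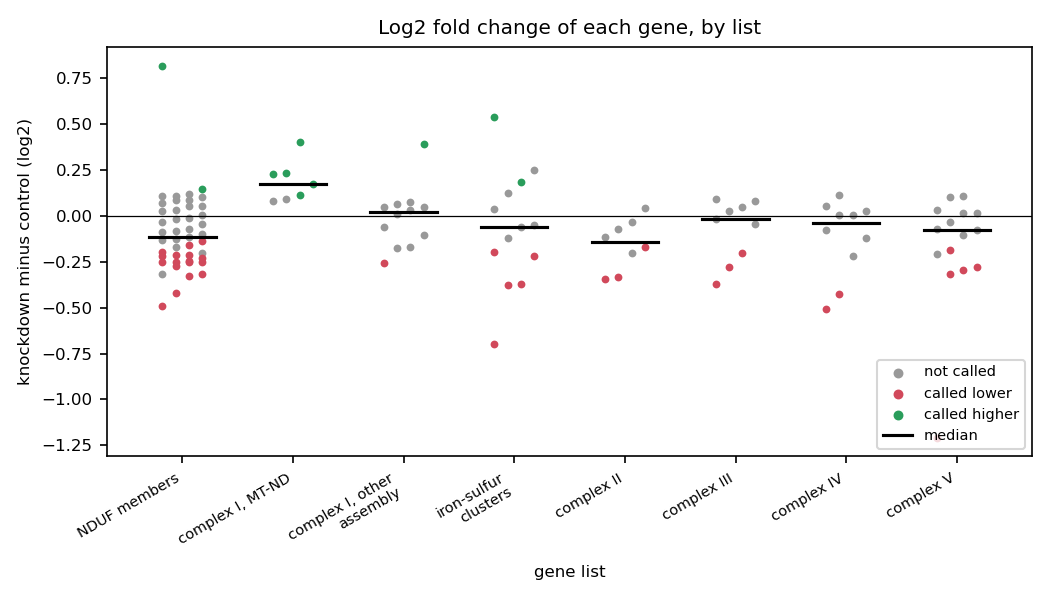
Log2 fold change (knockdown minus control) of each tested gene, by list, with the median of each list as a black line. Lists are the NDUF members, the MT-ND genes, other complex I assembly factors, iron-sulfur cluster genes and nuclear genes of complexes II to V. ATP5F1B (-1.21) lies far below the other genes of complex V, and the MT-ND genes lie above 0.

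Most members rich in G and C scattered widely between libraries. A limit of 58% GC, set after the scatter was seen, gave 10 tested members: NDUFV1, NDUFS7, NDUFS8, NDUFA11, NDUFA13, NDUFA4L2, NDUFB7, NDUFB10, NDUFB11 and NDUFAF3. In these 10, the median deviation from the group mean was 0.18, -0.25 and 0.06 on the log2 scale in controls 1, 2 and 3 and -0.20, 0.14 and 0.03 in knockdowns 1, 2 and 3. Control 2 and knockdown 1 read low and control 1 and knockdown 2 high, while in the other 35 members no library's median deviation was beyond 0.04. All 3260 tested genes of at least 58% GC shifted in the same libraries, by 0.10, -0.11 and 0.02 in controls and -0.11, 0.08 and 0.02 in knockdowns. Over the 45 members, Pearson's r of deviation with GC was 0.58, -0.57 and 0.09 in the controls and -0.71, 0.70 and -0.0020 in the knockdowns, as a description of genes that share a library. The median within-group SD was 0.25 in controls and 0.20 in knockdowns for the 10 members and 0.05 and 0.09 for the rest. NDUFV1, one of the 10, scattered little (0.04 and 0.07), while NDUFV2 (0.31 and 0.21) and the NDUFA7 row (0.22 and 0.23), both with few reads, scattered widely below the limit.

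**Figure D5:**
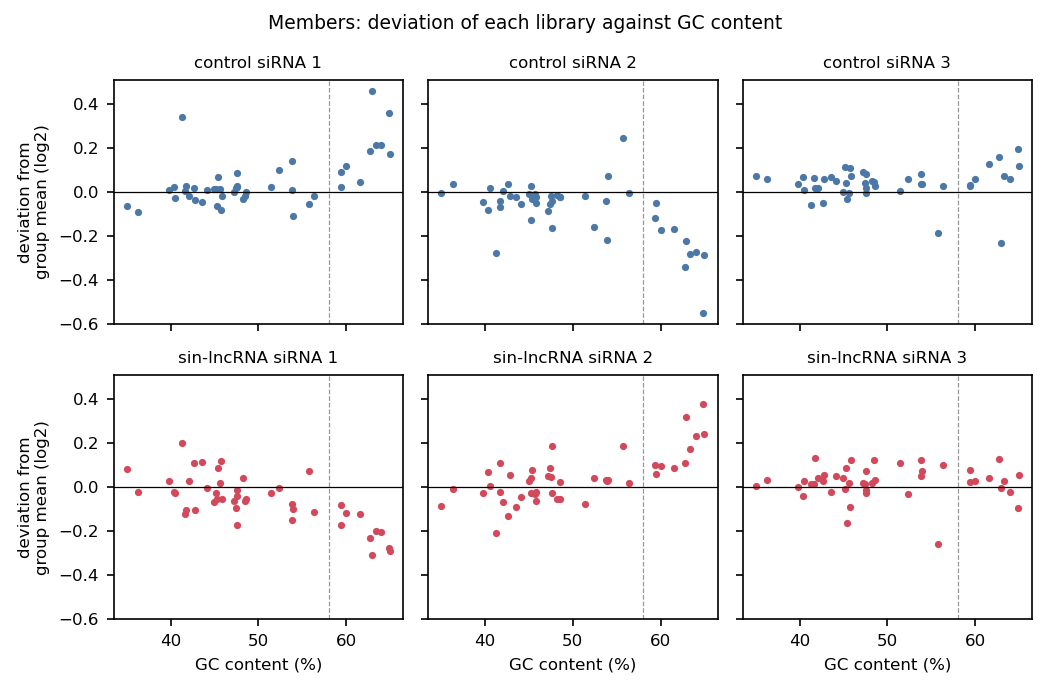
Deviation of each tested member from its group mean (log2, y axis) against the GC content of its longest coding transcript (%, x axis). There is 1 panel per library, with a dashed line at 58%. GC-rich members lie low in control 2 and knockdown 1 and high in control 1 and knockdown 2.

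After a correction for GC content and transcript length, 12 members were lower and 6 higher, against 17 and 2 without it. Over all genes the corrected fit called 24.2% lower and 20.1% higher. Of the 17 genes called lower before, 10 kept the call, and both genes called higher did. NDUFA9 (-0.53), NDUFAF1 (-0.45), NDUFS3 (-0.27), NDUFB6 (-0.26) and NDUFA6 (-0.25) remained lower. So did NDUFV1, which over all 21 other fits ran from -0.28 to -0.12, with adjusted p up to 0.0447 by limma. NDUFA8 (-0.11), NDUFS4 (-0.14), NDUFB8 (-0.13), NDUFB10 (-0.08), NDUFB11 (-0.07), NDUFAF2 (-0.18) and NDUFAB1 (-0.18) did not pass. NDUFS8 (0.22) and NDUFB7 (0.23), with NDUFA12 (0.13) and NDUFS5 (0.12), became higher. NDUFS1 (-0.12, adjusted p = 0.0228 by limma) and NDUFAF5 (-0.22, adjusted p = 0.0307) became lower. Without control 2 and knockdown 1 together, a choice made after seeing the data, 16 members were lower and 1 higher, and 14 of the 17 kept their call.

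Per length of the longest GENCODE 29 transcript, control levels of the tested members ran from 0.399 to 309 RPM per kb of transcript (RPKM) with a median of 25.5, and 34 of 45 were at 10 or more. With the median transcript length of each gene in place of the longest, the median was 51.7 RPKM in controls, while NDUFS3 was at 104 and NDUFS8 at 105 RPKM. NDUFS5, an accessory subunit of the intermembrane space side, was the highest at 309 RPKM in controls and 314 in knockdowns and did not pass the test. NDUFS3 was at 47.2 RPKM in controls and at 37.6 RPKM in knockdowns. NDUFS8 was at 78.3 RPKM in both groups. Across the 45 members, the fold change had a Pearson's r of -0.34 and a Spearman's rho of -0.20 with log2 control RPKM, -0.38 and -0.08 with log2 mean reads, and -0.03 and -0.17 with GC percent, as a description of genes that share libraries.

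Nuclear genes of the respiratory chain are known to be regulated through promoter sites for NRF1 and for ETS factors such as GABP. RefSeq promoters (GRCh38.p14, 250 bases before to 50 after the start) were found for 39 of the 46 symbols, in 49 entries. The ETS letters CCGGAAG, on either strand, were in 6 of the 49 member promoters (12.2%) and in 10.3% of all 35116 promoters of the same length. The NRF1 letters GCATGCGC, on either strand, were in 8 (16.3%) and in 3.05% of all, and neither motif contains the other. Of the 16 genes called lower with an entry, 1 had the ETS letters and 2 the NRF1 letters. The stretches shown lie upstream of the start of 3 members on which results turn, 5′ to 3′ on the gene's strand, with the motif letters in capitals. NDUFS3 (chr11:47578942-47579071, plus strand, lower) holds the ETS letters 2 times, NDUFA6 (chr22:42090839-42090968, minus strand, lower) the NRF1 letters, and NDUFA1 (chrX:119871755-119871831, plus strand, higher) the ETS letters.
NDUFS3: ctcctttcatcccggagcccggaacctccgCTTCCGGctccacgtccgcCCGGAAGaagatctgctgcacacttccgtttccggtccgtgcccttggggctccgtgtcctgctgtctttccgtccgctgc
NDUFA6: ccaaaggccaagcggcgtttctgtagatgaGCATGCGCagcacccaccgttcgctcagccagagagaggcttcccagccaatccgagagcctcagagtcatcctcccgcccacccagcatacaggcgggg
NDUFA1: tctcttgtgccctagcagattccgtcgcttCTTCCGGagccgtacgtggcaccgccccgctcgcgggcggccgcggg
The call of NDUFA1 held in 12 of the 21 other fits. Whether either motif bears on the changes was not tested. A match to these letters is not a measured binding site.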

How the data were processed

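RNA of 6 libraries was read as single 50 bp reads from polyA RNA, per the labels' protocols. Bowtie2, featureCounts and hg19 are named without versions or roles, per the submitters' processing notes, and the strand setting is not given in the sources used here. The authors deposited 1 table of log2 CPM values. The form was read from the values: undoing an offset of 0.5 reads and an effective library size (total times 0.989 to 1.009) gave whole reads, within 0.01, for 100% of values. The design had assumed linear normalized counts; limma was therefore run on the deposited log2 values.

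limma 3.58.1 (R 4.3.3) was fitted with lmFit and eBayes with trend to the 19048 genes with a mean of at least 10 reads, with group as the sole term, two-sided, and Benjamini-Hochberg adjustment called at 0.05. Fold changes carry the 0.5-read offset. As all knockdowns were read less deeply, a row without reads has a log2 fold change of 0.60. Fold changes of genes with few reads are drawn toward that value. An exact permutation test of 3 against 3 cannot go below 0.1. Limits of 3 reads cover counting error only. On simulated counts for this comparison over 19048 genes, 55% of changes of 0.5 and 99% of changes of 1 (log2) were recovered, and 3.14% of calls were false. The simulation changed only 200 genes, all with a mean of at least 50 reads. It gave every gene the same dispersion (spread beyond counting error) and no shift with GC content. In the data far more genes passed and GC-rich members scattered more, so these rates need not hold for the calls reported. GC content and length were those of the longest coding GENCODE 29 transcript of each gene ID, or of the longest where none was coding. Promoters came from RefSeq.

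The members and lists were chosen with earlier results of these data known. The rule finds 49 rows, of which 1 stayed in the fit, is not reported here and enters no count of members. Named are nuclear core subunits, the 12 called members with the largest fold changes, members called in the rarer direction, those not tested, NDUFA4, NDUFA4L2, the NDUFAF genes and, of each other list, up to 3 called genes per direction; NDUFA11, NDUFB7, NDUFA12, NDUFS5 and the smaller calls were added after their values were seen. Alternatives were other offsets, filters, scalings and fits, thinning to equal depth, a GC and length correction, each library left out and a replicate block. No batch is named in the labels.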

Additional observations from a re-analysis of the deposited data

How the results depend on the processing

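The count of members that passed, 19, was 12 with quantile normalization, 11 with eBayes without trend and 8 to 19 on leaving out each library. The 17 lower calls became 10 with quantile normalization and 10 with eBayes without trend, and 8 to 18 on leaving out a library. The 2 higher calls became 0 without a filter, 1 with a mean of at least 50 reads, 1 with eBayes without trend, 1 with thinning, 6 with the GC and length correction, 1 without control 2 and knockdown 1, and 0 to 1 on leaving out a library. The GC and length correction gave 12 lower. The median of the members stayed negative, from -0.16 to -0.07, in every fit; without a filter the median over all genes moved to 0.60, as rows without reads then follow the offset and depth.

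Same-numbered libraries deviated from their group means with correlations of -0.149, -0.183 and 0.065, which gave no sign of pairing. They cannot exclude it, since shifts with GC content that differed between libraries also enter these deviations. With the replicate block 11 members passed, 11 lower and 0 higher, and with the replicate block and the GC and length correction 12 lower and 5 higher.

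For the other complex I genes 14 calls became 8 with eBayes without trend and 8 to 12 on leaving out a library. For the nuclear genes of the other respiratory complexes 13 became 21 with the GC and length correction, 21 with that and the replicate block, and 12 to 16 on leaving out a library. The median level of 25.5 RPKM was 51.7 with median transcript lengths (rank correlation 0.83 over 45 members).

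Directions turned only in genes that had not passed the test. With the GC and length correction, alone or with the replicate block, NDUFAF3 went to 0.021, NDUFAF4 to -0.017, NDUFS1 to -0.12 and NDUFS7 to 0.10. On leaving out each library, NDUFA4L2 ran from -0.073 to 0.31, NDUFS7 from -0.36 to 0.10, NDUFS8 from -0.14 to 0.11 and NDUFV2 from -0.19 to 0.12. NDUFV2 was 0.13 with an offset of 5 reads and 0.15 after thinning, and NDUFS8 -0.036 without control 2 and knockdown 1. The causes were not tested. Of 921 refits of 44 named genes, 821 kept direction and call, 73 lost the call and 5 gained it.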
